A study of Mus musculus with 21 samples.

Results

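The genes described here code for the proteins of the cytosolic ribosome. They were chosen from the deposited count table as protein-coding rows whose symbol starts with Rpl, Rps or Rplp followed by a number, leaving out the S6 kinases (Rps6k) and pseudogene symbols. The rule found 86 of 47729 genes: 30 proteins of the small (40S) subunit, 43 of the large (60S) subunit, the 3 P-stalk proteins, 9 paralogs of core proteins, and Rps19bp1, which binds Rps19 and is not itself a ribosomal protein. The rule misses Rpsa, Fau and Rack1, which also give ribosome components and are described apart.

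RNA came from bone marrow hematopoietic stem cells (HSCs, sorted as CD48- LSK CD150+), and was read in 7 groups of 3 libraries. For the drug comparison, wild-type (WT) mice or Mx1-Cre;Atg5fl/fl mice, in which Cre from the interferon-inducible Mx1 promoter acts in blood cells and in other tissues, received 10% DMSO or 10 mg/kg bortezomib, a proteasome inhibitor, into the retro-orbital vein 48 h and 24 h before analysis. Atg5 is needed to form autophagosomes. For the reporter comparison, cells of untreated mice carrying the autophagy reporter RFP-EGFP-LC3 were RFP single positive, RFP GFP double positive or double negative. The labels give no ages, and do not say whether libraries came from separate mice, so p-values measure the spread between these libraries, which may be technical.

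Ribosomal proteins are made in near-equal amounts and assembled with ribosomal RNA in the nucleolus, and copies that find no partner are ubiquitinated and removed by the proteasome. Their short mRNAs carry a 5′ terminal oligopyrimidine (TOP) tract, through which mTORC1 and LARP1 control their translation and stability. HSCs keep protein synthesis low, and loss of single ribosomal proteins such as RPS19 causes anemia in people.

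Library totals ran from 15005500 to 31481691 counts, and 84 of the 86 genes passed the low-count filter in each experiment. Rpl10l, a paralog known from testis, had 0 counts in all 21 libraries, where a count of 0 allows 0.0953 to 0.200 CPM (counts scaled to a common library size; floor of 3 counts, counting error only). Rpl3l, a paralog of striated muscle, reached at most 23 counts in a library. Counts of Atg5 were not lower in the knockout-labelled libraries (112 ± 3.77 CPM with DMSO and 111 ± 27.2 with bortezomib, against 56.5 ± 17.4 and 103 ± 31.6 in WT; SD, n = 3), and since a count over the whole gene can include transcripts that lack the deleted exon, it does not check the genotype. All 11 HSC markers were present in every group. Some markers of other blood cells had counts too: the summed level in a library was 273 to 954 CPM for 8 monocyte and macrophage markers, 181 to 437 for 9 neutrophil markers, 43.8 to 213 for 8 T and NK cell markers and 53.8 to 108 for 7 B cell markers. Ms4a1, Pax5, Cd3e, Cd3g, Cd8a, Gzma and Ctsg were at 0 in every group. In each group 6 of the 8 T and NK cell markers and 4 to 6 of the 7 B cell markers had a mean under 1 CPM. Those 2 sums rest on few genes and do not by themselves show such cells. Library 3 of the WT DMSO group stood apart from libraries 1 and 2 in the ribosomal protein genes, and results that rest on it are given with and without it. The share of Xist among Xist and Ddx3y counts, a measure of the sex of the cells, was 31.8% to 99.2% in the WT libraries. In the knockout-labelled libraries it was 0% to 3.51%, apart from 100% in bortezomib library 1. In the reporter libraries it followed the replicate number, at 88.1% to 99.9% in the libraries numbered 2 and 0% to 10.2% in the others.

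The promoters of 65 of the 86 genes were matched in RefSeq (GRCm38.p6, first listed start of each gene, 250 bases before to 50 after it). The 5 letters CTTTC, as in many TOP starts, stood on the transcript strand within 50 bases of the annotated start in 31 of 65 (47.7%), against 12.6% of all 27025 promoters. The ETS-type letters CCGGAAG stood on either strand in 24 of 65 (36.9%), against 9.12% of all promoters. AAGATGG, the core letters of YY1 sites, stood on either strand in 13.8% against 6.48%, and TATAAA, in the 50 bases before the start on the transcript strand, in 1 of 65 against 2.88% of all. The sequences below run from 60 bases before to 20 bases from the start, with CTTTC and CCGGAAG (or its reverse complement) in capitals. Rpl38, Rpl27 and Rpl28 are shown because they were among the genes whose bortezomib response differed by genotype, and 3 core genes are shown each above a paralog.
Rpl38: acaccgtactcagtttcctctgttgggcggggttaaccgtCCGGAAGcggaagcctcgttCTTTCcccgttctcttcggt
Rpl27: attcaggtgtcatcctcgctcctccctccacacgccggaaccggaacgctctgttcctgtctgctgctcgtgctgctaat
Rpl28: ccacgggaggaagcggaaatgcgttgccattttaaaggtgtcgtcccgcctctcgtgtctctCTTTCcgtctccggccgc
Rps27: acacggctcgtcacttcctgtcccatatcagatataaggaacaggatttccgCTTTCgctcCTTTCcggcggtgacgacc
Rps27l: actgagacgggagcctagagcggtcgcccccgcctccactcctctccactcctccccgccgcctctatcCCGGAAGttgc
Rpl36a: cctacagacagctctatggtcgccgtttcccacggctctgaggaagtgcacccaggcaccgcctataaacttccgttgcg
Rpl36al: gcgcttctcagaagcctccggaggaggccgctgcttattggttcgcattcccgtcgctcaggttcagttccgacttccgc
Rpl22: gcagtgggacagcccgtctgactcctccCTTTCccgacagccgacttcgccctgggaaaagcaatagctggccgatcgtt
Rpl22l1: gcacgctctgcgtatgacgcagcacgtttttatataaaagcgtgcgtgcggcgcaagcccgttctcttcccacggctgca
They lie at chr11:114668520-114668599 (Rpl38, plus strand), chr11:101442185-101442264 (Rpl27, plus), chr7:4792905-4792984 (Rpl28, plus), chr3:90213629-90213708 (Rps27, minus), chr9:66946026-66946105 (Rps27l, plus), chrX:134585594-134585673 (Rpl36a, plus), chr12:69184048-69184127 (Rpl36al, minus), chr4:152325666-152325745 (Rpl22, plus) and chr3:28805448-28805527 (Rpl22l1, plus). Within these windows Rps27 held CTTTC and Rps27l did not, and the same was true of Rpl22 and Rpl22l1. Genes with CTTTC near the start had a median log2 fold change with bortezomib in WT of 0.60 (31 genes), and those without it 0.46 (32 genes tested). Between genotypes under bortezomib both medians were -0.61. A match describes letters and shows no bound factor.

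Ribosomal protein genes took 4.06% to 10.1% of all counts in a library. In the WT DMSO libraries the share was 4.76%, 4.49% and 6.78%, and in the WT bortezomib libraries 6.64%, 6.60% and 6.58%. The DMSO libraries were spread (5.34% ± 1.25, SD, n = 3), and library 3 lay above all bortezomib libraries, which had an SD of 0.0275 (exact two-sided permutation p = 0.4). The knockout-labelled libraries held 4.23%, 5.65% and 6.30% with DMSO and 4.06%, 5.54% and 6.16% with bortezomib. Under bortezomib every knockout-labelled library was below every WT library, by 1.35 percentage points on average, which gave an exact permutation p of 0.1, the smallest that 3 against 3 allows (adjusted p = 0.7 over 7 comparisons by Benjamini-Hochberg). In the reporter experiment the share was 8.24%, 5.63% and 6.39% in RFP single positive, 8.25%, 8.42% and 5.90% in RFP GFP double positive and 10.1%, 6.60% and 7.03% in double-negative cells, and these groups overlapped (exact permutation p of 0.5 to 0.8). In bulk RNA, fewer cells of a type and less RNA per cell cannot be told apart.

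**Figure D1:**
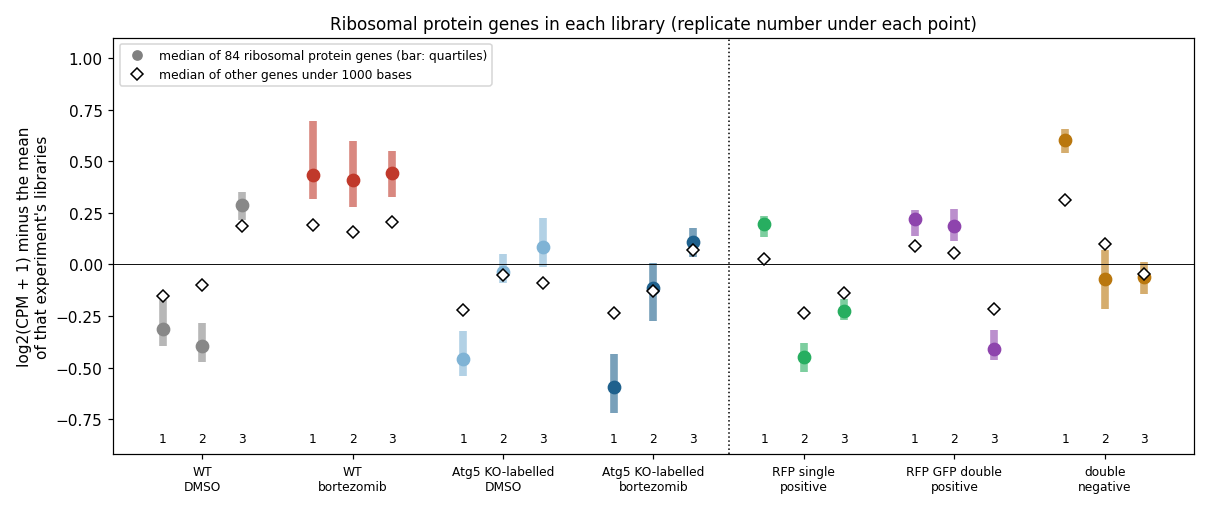
Each filled point is the median, over 84 ribosomal protein genes, of log2(CPM + 1) in 1 library minus its mean over the libraries of that experiment; bars span the quartiles, and open diamonds are the median of other genes under 1000 bases. The 3 WT bortezomib libraries sit at 0.41 to 0.44, WT DMSO library 3 at 0.29 and WT DMSO libraries 1 and 2 at -0.31 and -0.39, and in the WT libraries the diamonds have the same sign and lie nearer to 0.

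Per kilobase of transcript, the levels of the core genes differed widely. Rpl32 was highest, followed by Rps14, Rps27, Rpl37a and Rps19 (each a mean over the 21 libraries of CPM per kilobase). Rpl32 stood at 6097 CPM per kilobase against a median of 949 over the core genes. Rpl24 was lowest at 21.7, where 81.7% of its 50-base words also occur in other genes and 47.0% of its exon bases overlap Gm28037, so its reads may be counted elsewhere or not at all. Such sharing is common: 82 of the 86 genes share 50-base words with annotated pseudogenes. Rps20's level per kilobase is uncertain, since its annotated transcript is 3706 bases long.

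In WT HSCs, 23 of the 84 ribosomal protein genes rose with bortezomib and 0 fell, where 7.97% of all tested genes rose and 7.56% fell (edgeR, adjusted p under 0.05). Their median log2 fold change was 0.54, against -0.04 over all genes, and 82 of 84 values were positive. The calls came from all parts of the ribosome: 7 of 30 small-subunit genes (median 0.53), 11 of 43 large-subunit genes (median 0.53), 2 of 3 P-stalk genes, 2 of 7 tested paralogs, and Rps19bp1. In 53 of 84 genes every bortezomib library was above every DMSO library, against 19.3% of all genes, and in 0 genes every one was below, against 17.7% of all genes.

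Among small-subunit genes, Rps16 stood at 399, 376 and 627 CPM in the WT DMSO libraries and 984, 967 and 776 in the bortezomib libraries. The groups did not overlap, and Rps16 rose by 0.96 on the log2 scale (SE 0.23, edgeR adjusted p = 0.013). Rps15 rose by 0.80 (SE 0.21, edgeR adjusted p = 0.0195). Rps27a, made as a fusion to ubiquitin, was at 578, 536 and 952 CPM with DMSO and 1332, 1256 and 1118 with bortezomib, and rose by 0.84 (SE 0.26, edgeR adjusted p = 0.0384). Other genes often named in ribosome disease or signaling were positive without a call. Rps19, the gene most often mutated in Diamond-Blackfan anemia, was at 0.30 (edgeR adjusted p = 0.406). Rps14, the 5q- syndrome gene, was at 0.62 (edgeR adjusted p = 0.101), and Rps6, the target of S6 kinase, at 0.49 (edgeR adjusted p = 0.122). In Rps19, WT DMSO library 3 (2171 CPM) lay above all 3 bortezomib libraries, and in Rps14 and Rps6 just below them. Rps6 was at 580, 551 and 902 CPM with DMSO and 914, 942 and 1009 with bortezomib.

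Among large-subunit genes, Rpl27 had 297, 290 and 443 CPM with DMSO and 770, 756 and 701 with bortezomib. It rose by 1.11 (SE 0.20, edgeR adjusted p = 0.00418). Rpl38, whose loss in mice alters axial patterning, had 323, 317 and 493 CPM with DMSO and 830, 805 and 624 with bortezomib and rose by 1.00 (SE 0.23, edgeR adjusted p = 0.0105). Rpl5 and Rpl11 join the 5S ribosomal RNA in a particle that binds MDM2. Rpl5 went from 254, 237 and 354 CPM to 507, 500 and 475 and rose by 0.81 (SE 0.19, edgeR adjusted p = 0.0123), while Rpl11 was at 0.42 (SE 0.24, edgeR adjusted p = 0.264). Rpl35a rose by 0.95 (edgeR adjusted p = 0.0181). Rpl4 was flat, with 1419, 1244 and 1276 CPM against 1227, 1242 and 1315. It was at -0.06 (SE 0.14, edgeR adjusted p = 0.82), and is named after its values were seen.

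The P-stalk recruits the GTPases of elongation. Rplp2 went from 451, 435 and 645 CPM to 898, 856 and 819 and rose by 0.75 (SE 0.20, edgeR adjusted p = 0.0196). Rplp1 rose by 0.86 (SE 0.26, edgeR adjusted p = 0.0336), and Rplp0 was at 0.43 (SE 0.20, edgeR adjusted p = 0.15). Rps19bp1 had 28.3, 29.0 and 26.0 CPM with DMSO and 40.7, 50.1 and 53.0 with bortezomib and rose by 0.79 (edgeR adjusted p = 0.017).

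Paralogs of core proteins can replace them in some tissues, and 2 rose. Rps27l, a known p53 target, had 444, 439 and 790 CPM with DMSO and 1607, 1502 and 1143 with bortezomib, and rose by 1.35 (SE 0.29, edgeR adjusted p = 0.00841). Its parent Rps27 had 669, 632 and 1186 CPM with DMSO and 1016, 824 and 984 with bortezomib, a difference of 0.18 (edgeR adjusted p = 0.706). Per kilobase, Rps27l went from 46.5% of the level of Rps27 to 104%. Rpl36al had 116, 96.2 and 123 CPM with DMSO and 326, 256 and 258 with bortezomib, the smallest p among the 84 genes (1.32, SE 0.23, edgeR adjusted p = 0.00405), and went from 48.4% to 76.1% of Rpl36a per kilobase. Rpl22l1 (0.79, edgeR adjusted p = 0.0551), Rpl7l1 (0.43, edgeR adjusted p = 0.121), Rps27rt (0.30, edgeR adjusted p = 0.551) and Rpl6l (1.35, edgeR adjusted p = 0.259, about 1 CPM) were not called. Rpl39l was not called either, at 1.85, the largest value of the 84 genes. It rests on 77 reads with DMSO and 246 with bortezomib (ratio 3.32, exact 95% interval 2.56 to 4.34, counting error only). The difference between paralog and parent was not tested. Of the 50-base words of Rps27, 98.6% occur in other genes, against 22.4% for Rps27l and 63.3% for Rpl36al, so how reads were assigned could differ between a paralog and its parent.

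**Figure D2:**
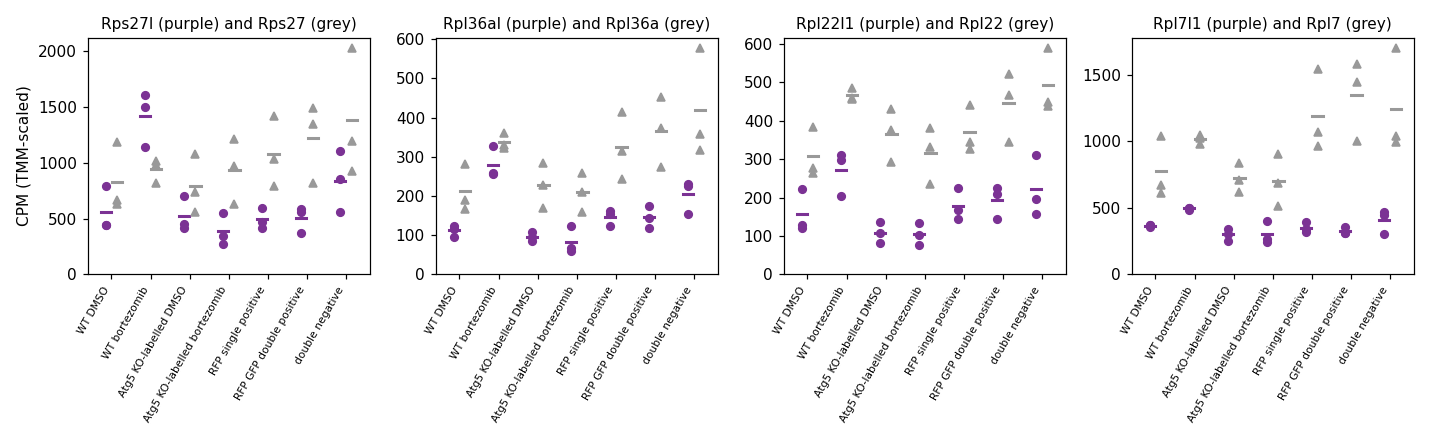
CPM of 4 paralogs (purple circles) and their parent genes (grey triangles) in every library, with a line at each group mean of 3 libraries. Rps27l exceeds Rps27 in the WT bortezomib group (1143 to 1607 CPM against 824 to 1016) and is below it in every other group mean.

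The count of 23 depended on single libraries. It was 54 without WT DMSO library 3 and 70 when library 3 was left out of both WT groups and of the knockout-labelled bortezomib group together, but 3 and 2 without WT DMSO libraries 1 and 2, and 4, 6 and 14 without WT bortezomib libraries 1, 2 and 3. The share of the 84 genes that rose was 64.3% without WT DMSO library 3, against 8.07% of all genes in that fit. With library 3 left out of the 3 groups it was 83.3%, against 12.8%, the largest share of any fit of this comparison. That set kept library 3 of the knockout-labelled DMSO group, so it was not an even removal of 1 replicate number. The share of the 84 genes was near that of all genes without WT DMSO library 1 (3.57% against 2.52%) or 2 (2.38% against 1.88%). Without WT bortezomib libraries 1, 2 and 3 it was 4.76%, 7.14% and 16.7%, against 1.67%, 3.85% and 5.998% of all genes. When libraries were scaled by the ribosomal protein genes themselves, which sets their median near 0 by construction, Rps27l (0.86) and Rpl27 (0.60) were still higher and 1 gene was lower. In that fit 0.44% of all genes were higher and 16.1% lower.

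The length of transcripts moved with this comparison. The 86 genes have a median transcript length of 705 bases, against 2277 over protein-coding genes. Among other genes under 600 bases the median WT bortezomib log2 fold change was 0.39, from 600 to under 1000 bases 0.28, from 1000 to under 2000 bases 0.12, and at 4000 bases and over -0.25. The ribosomal protein genes stood above other genes of the same length in each class with 15 or more of them, at 0.66, 0.53 and 0.41. With offsets for length and GC content in the fit, 25 genes rose (29.8%, against 11.65% of all genes). The median was 0.38, against 0.07 over all genes. The count was 25 again when the offsets were estimated without the ribosomal protein genes.

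**Figure D3:**
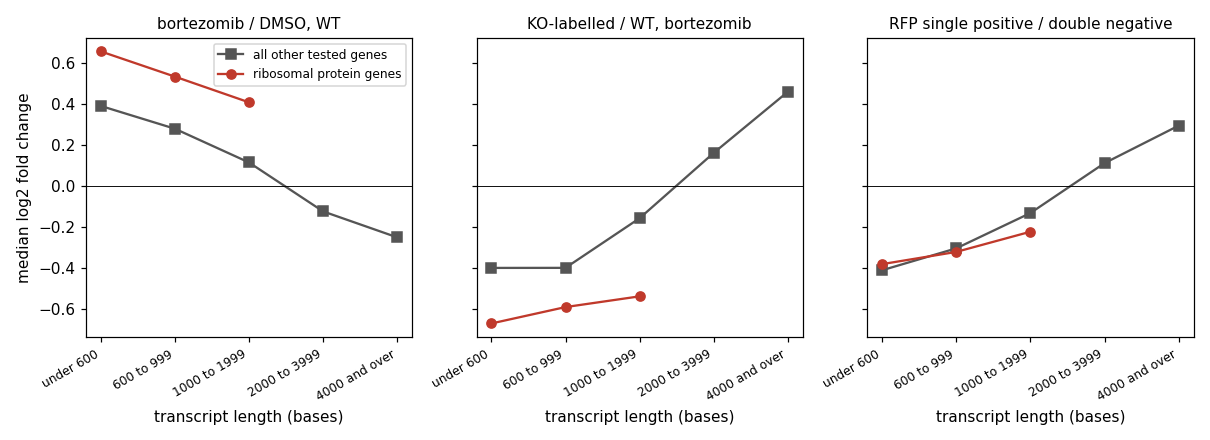
Median log2 fold change by transcript length for ribosomal protein genes (red) and all other tested genes (grey) in 3 comparisons; classes with fewer than 10 genes are not drawn. The ribosomal protein genes lie above the others of equal length for bortezomib in WT (0.66 against 0.39 under 600 bases), below them for knockout-labelled against WT under bortezomib (-0.67 against -0.40), and close to them in the reporter comparison (-0.38 against -0.41).

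Other markers moved with bortezomib in WT. Of 11 HSC markers 10 fell, and their summed level was 3526 to 3990 CPM with DMSO and 2115 to 2520 with bortezomib. The summed level of 10 erythroid markers was 82.1 to 101 CPM with DMSO and 213 to 237 with bortezomib, with 2 of 10 higher and 1 lower. That of 8 T and NK cell markers was 82.2 to 89.9 and 146 to 213 (1 of 2 tested higher), with 6 of the 8 under 1 CPM in both groups. Endothelial and stromal markers summed to 78.9 to 106 CPM with DMSO and 41.7 to 66.4 with bortezomib, with 2 of 5 tested lower and a median log2 fold change of -1.17. Of 7 tested monocyte and macrophage markers 1 was higher (658 to 913 CPM summed with DMSO, 590 to 816 with bortezomib), and of the tested megakaryocyte, neutrophil and B cell markers 0 were called. Their part in the ribosomal protein result was not tested. With the Xist share as a term in the fit, 13 ribosomal protein genes rose (15.5%, against 5.15% of all genes, with a median of 0.38).

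In the knockout-labelled HSCs, 0 of 84 ribosomal protein genes were called with bortezomib, where 3.63% of all genes were, 2.02% higher and 1.61% lower (edgeR; 2 of the 84 at an unadjusted p under 0.05; 0 by DESeq2). The median log2 fold change was -0.07. In 0 genes every bortezomib library was above every DMSO library (10.6% of all genes) and in 1 every one was below (9.73%). Rpl27 was at 305, 408 and 370 CPM with DMSO and 289, 337 and 448 with bortezomib, and Rps27l at 416, 707 and 448 against 276, 343 and 551. The groups overlapped in both. Rpl36al was at -0.20 (SE 0.23, edgeR adjusted p = 0.745) and Rpl38 at -0.18 (SE 0.22, edgeR adjusted p = 0.771). Leaving out the knockout-labelled bortezomib library 3 gave 1 lower call (1.19%, where 3.365% of all genes were lower). Leaving out library 3 of both WT groups and of this group together gave 4 (4.76%, against 6.20%). The median turned positive without knockout-labelled bortezomib library 1 (0.09), without knockout-labelled DMSO library 3 (0.04) and with the Xist term (0.09), so its sign carries no direction.

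**Figure D4:**
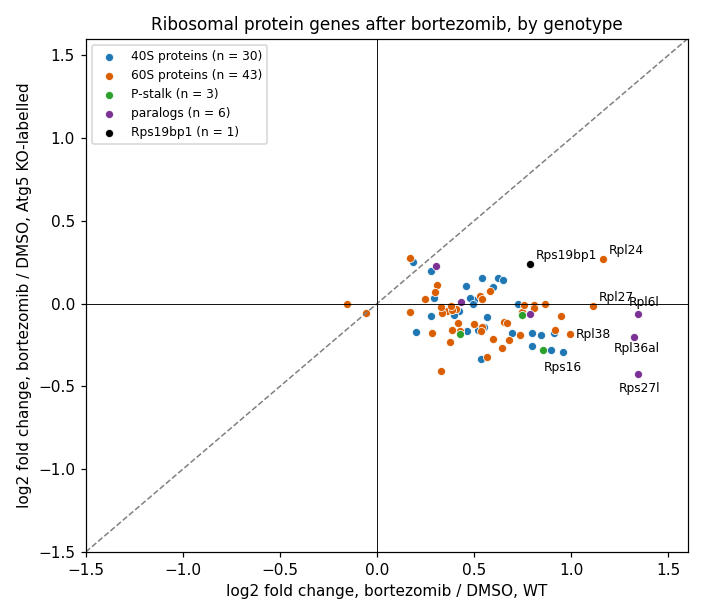
Log2 fold change with bortezomib in WT (horizontal) against that in knockout-labelled HSCs (vertical) for 83 of the 84 tested ribosomal protein genes, colored by role; Rpl39l, at 1.85 and -3.53 on very few counts, is outside the range, and the dashed line marks equal change. Most points lie right of 0 and near 0 on the vertical axis, with Rps27l at 1.35 and -0.42 and Rpl27 at 1.11 and -0.01.

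Without drug, no ribosomal protein gene was called between knockout-labelled and WT HSCs. Of 84 genes 0 were called, where 0% of all genes were (edgeR; 0 of the 84 at an unadjusted p under 0.05, 0 by DESeq2), and the median was 0.01. In 0 genes every knockout-labelled library was higher (9.39% of all genes) and in 1 every one was lower (8.63%). Rpl5 was at 254, 237 and 354 CPM in WT and 218, 242 and 211 in knockout-labelled libraries (-0.33, SE 0.19, edgeR adjusted p = 0.619). Rpl22l1 was at 128, 120 and 221 CPM and 82.2, 136 and 108 (-0.53, SE 0.27, edgeR adjusted p = 0.575). The median followed single libraries: it was 0.24 without WT DMSO library 3 (73 of 84 positive, 3 at an unadjusted p under 0.05), 0.25 when library 3 was left out of the knockout-labelled bortezomib group and both WT groups (15 at an unadjusted p under 0.05), and -0.11 to 0.13 without any 1 of the other libraries. With the Xist term, which nearly coincides with genotype among the DMSO libraries, it was -0.53 (25 at an unadjusted p under 0.05). Each of these fits gave 0 calls among the 84 genes.

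Under bortezomib, 42 of 84 ribosomal protein genes were lower in knockout-labelled than in WT HSCs and 0 were higher, where 15.3% of all genes were lower and 17.2% higher (edgeR). The median was -0.61 against 0.08 over all genes, and 83 of 84 values were negative. Lower calls were made for 10 of 30 small-subunit genes, 23 of 43 large-subunit genes, 3 of 3 P-stalk genes, 5 of 7 paralogs and Rps19bp1. In 68 of 84 genes every knockout-labelled library was below every WT library, against 21.8% of all genes, and in 0 every one was above (22.3%). This comparison uses the same WT bortezomib libraries as the WT comparison, so the results are not independent. Between genotypes, a gene that fell was lower than in WT, which is not a fall with the drug.

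Rps27l, with 276, 343 and 551 CPM in the knockout-labelled libraries under bortezomib against 1607, 1502 and 1143 in WT, fell by 1.86 (SE 0.29, edgeR adjusted p = 0.000363). Rpl36al, with 60.6, 66.6 and 123 CPM against 326, 256 and 258, fell by 1.75 (SE 0.24, edgeR adjusted p = 0.000182). Per kilobase, the knockout-labelled bortezomib group had Rps27l at 28.7% of Rps27 and Rpl36al at 36.6% of Rpl36a. Rpl22l1 fell by 1.38 (SE 0.27, edgeR adjusted p = 0.00136) and was at 28.3% of Rpl22 per kilobase, against 49.7% in WT. With DMSO it was at 25.5% in knockout-labelled HSCs, against 43.6% in WT. Rpl7l1 fell by 0.71 (edgeR adjusted p = 0.00781). Rpl39l, a testis-known paralog, had 0, 0 and 2 reads in the knockout-labelled libraries and 86, 60 and 100 in WT. The WT to knockout-labelled ratio was 116 (exact 95% interval 31.7 to 961, counting error only, with edgeR adjusted p = 0.000574). With DMSO that ratio was 2.80 (exact 95% interval 1.71 to 4.78, counting error only).

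Among core genes, Rpl5 had 174, 206 and 279 CPM against 507, 500 and 475 and fell by 1.17 (SE 0.19, edgeR adjusted p = 0.000466). Rpl38 fell by 1.33 (SE 0.23, edgeR adjusted p = 0.000584), with 226, 284 and 389 CPM against 830, 805 and 624. Rps16 fell by 1.22, Rpl27 by 1.05 and Rps15 by 0.95 (edgeR adjusted p = 0.00109, 0.0012 and 0.0031). In each of these the knockout-labelled library 1 was the lowest and library 3 the highest, and none overlapped WT. Rplp1 fell by 1.04, Rplp2 by 0.67 and Rplp0 by 0.61 (edgeR adjusted p = 0.00611, 0.0164 and 0.0252). Rps27a fell by 1.01 and Rps6 by 0.71 (edgeR adjusted p = 0.00783 and 0.017). Rpl11 (-0.64), Rps14 (-0.50), Rps19 (-0.39), Rpl32 (-0.25) and Rps27 (0.00) were not called (edgeR adjusted p = 0.0546 to 0.996).

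The count was 23 without knockout-labelled bortezomib library 1 (27.4%, against 10.96% of all genes lower). It was 57 without library 3 of that group (67.9%, against 17.35%). It was 65 without library 3 of both WT groups and the knockout-labelled bortezomib group (77.4%, against 19.0%). Without any 1 of the other libraries it was 30 to 34 (35.7% to 40.5%, against 10.6% to 12.7% of all genes). Scaled by the ribosomal protein genes, 14 were lower and 4 higher, among the 4 Rps27 (0.54), Rps9 (0.46) and Rpl3 (0.44). In that fit 3.49% of all genes were lower and 29.5% higher. With length and GC offsets 33 were lower and 1 higher (39.3% and 1.19%, against 18.8% and 12.35% of all genes). The median was -0.35, against -0.05 over all genes. In the fit without offsets, other genes under 600 bases had a median of -0.40, against -0.67 for the ribosomal protein genes of that length. With the Xist term 63 were lower and 0 higher (75% lower, against 15.6% of all genes lower and 16.7% higher). Other markers differed as well between knockout-labelled and WT HSCs under bortezomib. Of the 11 HSC markers 6 were higher and 0 lower (summed level 3047 to 3390 CPM against 2115 to 2520), and of 5 tested endothelial and stromal markers 3 were higher and 0 lower (median 1.59; 103 to 123 CPM against 41.7 to 66.4). Lower calls were made for 3 of 7 monocyte and macrophage markers (273 to 647 CPM against 590 to 816), 1 of 8 neutrophil markers and 1 of 2 T and NK cell markers (43.8 to 122 CPM against 146 to 213), with 0 higher. Of 7 megakaryocyte markers 3 were higher and 3 lower. The erythroid markers summed to 78.5 to 108 CPM against 213 to 237, yet their median log2 fold change was 1.47, with 1 of 10 higher and 1 lower. Of 3 tested B cell markers 0 were called. The part of these markers in the ribosomal protein result was not tested.

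The genotype by bortezomib interaction was called in 8 of 84 ribosomal protein genes, all negative, where 9.05% of all genes were called, 4.71% negative and 4.35% positive (edgeR). The median was -0.62. It compares the responses of both genotypes and uses all 12 libraries. The called genes included Rpl36al (-1.52, SE 0.33), Rps27l (-1.77, SE 0.40), Rpl27 (-1.12, SE 0.28), Rps16 (-1.26, SE 0.32), Rpl38 (-1.18, SE 0.32), Rpl28 (-0.89, SE 0.27) and Rpl39l, on very few counts. The edgeR adjusted p ran from 0.0136 to 0.0487. Rpl28 had 171, 151 and 191 CPM in WT with DMSO and 256, 243 and 262 with bortezomib, against 188, 213 and 246 and 121, 198 and 199 in knockout-labelled libraries. Without WT DMSO library 3 the count was 32 and without knockout-labelled bortezomib library 3 it was 34, while it was 1 or 2 without any of WT DMSO libraries 1 and 2, WT bortezomib libraries 1 and 2, knockout-labelled DMSO library 2, or knockout-labelled bortezomib libraries 1 and 2, and 5 without knockout-labelled DMSO library 3. Where it was 1 (1.19% of the 84 genes), 0.977% to 1.14% of all genes were called negative, and where it was 2 (2.38%), 1.89% to 2.37% were, so those counts were near the share of all genes. The count of 5 (5.95%) stood against 5.07% of all genes, that of 32 (38.1%) against 5.22%, and that of 34 (40.5%) against 9.42%. With the Xist term 0 ribosomal protein genes were called (median -0.33), where 0.774% of all genes were called negative.

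Genes outside the symbol rule behaved as follows. Rack1, a scaffold protein of the small subunit, rose by 0.85 with bortezomib in WT (SE 0.20, edgeR adjusted p = 0.0134) and was lower in knockout-labelled HSCs under bortezomib (fell by 0.99, edgeR adjusted p = 0.00196). Rpsa and Fau were at 0.48 and 0.60 in WT (edgeR adjusted p = 0.101 for each), and were not called. Of 19 other TOP mRNAs, 6 rose in WT (Eef1d, Btf3, Npm1, Nap1l1, Hnrnpa1 and Naca) and 1 fell, the elongation factor Eef2, by 0.53 (edgeR adjusted p = 0.0406); their median was 0.51. Under bortezomib, 9 of them were lower in knockout-labelled HSCs and 3 higher, Eef2, Eif3f and Pabpc1, with a median of -0.54. Over all tested genes, 7.97% rose and 7.56% fell in WT, and 17.2% were higher and 15.3% lower by genotype under bortezomib.

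Of 18 genes of mTORC1, LARP1 and cap-binding control, 4 rose in WT with bortezomib and 1 fell, and between genotypes under bortezomib 4 were higher and 4 lower. Eif4a1, the helicase of the cap-binding complex, rose by 1.01 (edgeR adjusted p = 0.00652) and was lower by genotype under bortezomib, where it fell by 1.43 (edgeR adjusted p = 0.000235). The mTORC1 inhibitors Tsc1 and Tsc2 were higher in knockout-labelled HSCs under bortezomib, by 1.27 and 0.65 (edgeR adjusted p = 0.00481 and 0.0187). Of 11 tested chaperones and disposal factors of ribosomal proteins, 4 rose in WT, among them Grwd1, the Rpl3 chaperone (0.71, edgeR adjusted p = 0.0273), and 0 fell. Between genotypes under bortezomib 6 of the 11 were lower, with Grwd1 falling by 1.18 (edgeR adjusted p = 0.000616), and 1 was higher, Huwe1. Of 13 ribosome quality-control genes, 0 rose and 1, Gtpbp2, fell by 0.91 in WT (edgeR adjusted p = 0.0448). Gtpbp2 and Nemf were higher by genotype under bortezomib (1.61 and 0.89, edgeR adjusted p = 0.000859 and 0.00583). The called counts of this list, and those by genotype in the mTORC1 list, were near the shares of all genes given above. Among other genes of 4000 bases and over, 29.4% were higher by genotype, and transcript length was not taken into account for these lists.

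In the reporter experiment no ribosomal protein gene was called. In RFP single positive against RFP GFP double positive cells 0 of 84 were called, where 0% of all genes were, with a median of -0.16 and 80 of 84 values negative (edgeR; 0 at an unadjusted p under 0.05; 0 by DESeq2). Against double-negative cells, 0 of 84 were called for RFP single positive (0% of all genes), with a median of -0.35 and 83 of 84 values negative (4 at an unadjusted p under 0.05, edgeR, and 0 called by DESeq2). For double positive 0 of 84 were called (0.0065% of all genes), with a median of -0.17 and 75 of 84 values negative (2 at an unadjusted p under 0.05, edgeR, and 0 called by DESeq2). In RFP single positive against double positive, 0 genes were higher (3.84% of all) or lower (3.51%) in every library; against double negative, 0 were higher (7.64%) and 2 lower (5.52%) for single positive, and 0 higher (6.28%) and 0 lower (4.94%) for double positive. The median over the 84 genes was highest in double-negative library 1, at 0.61 above the mean of the reporter libraries. Rps27l was at 599, 414 and 472 CPM in RFP single positive, 586, 563 and 367 in double positive and 853, 1104 and 557 in double-negative cells (-0.76 for single positive against double negative, edgeR adjusted p = 0.651). Rpl38 was at 566, 347 and 435, at 607, 509 and 362, and at 809, 602 and 573 CPM in the same order (-0.56, edgeR adjusted p = 0.651). The size of these medians depended on single libraries, and for double positive against double negative the sign did too. For single against double positive the median was -0.38 and -0.02 without RFP single positive libraries 1 and 2, and -0.06, -0.07 and -0.34 without double-positive libraries 1, 2 and 3. For single positive against double negative it was -0.10 without double-negative library 1, and -0.54 and -0.19 without RFP single positive libraries 1 and 2. It stayed negative without any 1 library. For double positive against double negative it was 0.08, -0.28 and -0.28 without double-negative libraries 1, 2 and 3, and -0.27, -0.27 and -0.01 without double-positive libraries 1, 2 and 3. Other genes under 600 bases had a median of -0.41 in single positive against double negative, beside -0.38 for the ribosomal protein genes.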

How the data were processed

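The authors deposited raw counts per gene for 21 libraries made with RNeasy Plus Micro RNA and SMARTseq2, per the labels' protocols. The submitters' processing notes name HTSeq 0.7.1, STAR 2.6.1 and Bowtie 1.0.0. For counting, strand use and annotation release are not given in the sources, so reads of a gene and its antisense partner cannot be told apart.

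Counts were tested in R 4.3.3 with edgeR 4.0.16 (filterByExpr, TMM, quasi-likelihood test, 1 mean for each group) over 16149 genes (treatment, 12 libraries) and 15375 (reporter, 9 libraries), with calls at an adjusted p (Benjamini-Hochberg, over all genes tested) under 0.05. Scripts were tested on simulated data. CPM use TMM-scaled library sizes; log2(CPM + 1) was used for library deviations. DESeq2 1.42.0, length and GC offsets (GENCODE M21 models, GRCm38), other scalings, the Xist share, a replicate block and leaving out libraries were alternatives. The shares of counts were tested by exact permutation (scipy 1.17.1). The genes and lists were chosen with earlier results of these data known. Named genes were, per comparison, the 10 called genes with the smallest p each way, the 5 highest per kilobase, paralogs with their parents, Rps27a, the P-stalk, Rpl5, Rpl11, Rps19, Rps14, Rps6, genes below the filter, and up to 4 called members of each other list. Some genes that this rule gives are not reported here.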

Additional observations from a re-analysis of the deposited data

Results flagged for a closer look

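The response to bortezomib differed between WT and knockout-labelled HSCs, by the interaction term of the edgeR fit, in 8 of 84 ribosomal protein genes (9.52%), all negative, where 9.05% of all genes were called and 4.71% were called negative (log2 difference of responses, knockout-labelled minus WT). They included -1.52 for Rpl36al (edgeR adjusted p = 0.0136), -1.77 for Rps27l (0.0175), -1.12 for Rpl27 (0.0254), -1.26 for Rps16 (0.0272), -5.37 for Rpl39l (0.0313), -1.18 for Rpl38 (0.0331) and -0.89 for Rpl28 (0.0487). The value of Rpl39l rests on 2 reads in the knockout-labelled bortezomib libraries and depends on the prior count. Of the 8, 7 kept their call with length and GC offsets, 1 kept it when each library in turn was left out, and 0 kept it under every alternative.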

How the results depend on the processing

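Counts of called ribosomal protein genes kept their direction except as named. For bortezomib in WT (23), DESeq2 gave 35 (11.1% of all genes rose), no filter on low counts 37 (5.97%), and the Xist term 13 (5.15%). Scaling by the ribosomal protein genes gave 3 (2 higher, 1 lower), where 0.44% of all genes were higher and 16.1% lower. Leaving out each library in turn gave 2 to 54 (1.67% to 8.07% of all genes rose). Leaving out library 3 of both WT groups and of knockout-labelled bortezomib gave 70 (12.8% of all genes rose). This uneven set kept knockout-labelled DMSO library 3. It gave the largest counts for bortezomib in WT, for genotype under bortezomib and for the interaction. In knockout-labelled HSCs (0), leaving out those 3 libraries gave 4 lower (6.20% of all genes were lower) and each library in turn 0 to 1. For genotype under bortezomib (42), scaling by the ribosomal protein genes gave 18 (14 lower, 4 higher), where 3.49% of all genes were lower and 29.5% higher. Leaving out those 3 libraries gave 65 (19.0% of all genes were lower), and each library in turn 23 to 57 (10.6% to 17.35%). For the interaction (8), DESeq2 gave 24, no filter 27, length and GC offsets 20 (23 when estimated without the ribosomal protein genes, chosen after seeing the data), scaling by the ribosomal protein genes 1, leaving out those 3 libraries 68, the Xist term 0, and each library in turn 1 to 34. The other comparisons kept 0 calls under each alternative run.

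With the replicate number as a block, 48 rose in WT (9.77% of all genes rose). By genotype under bortezomib 61 were lower and 1 higher (62 in all), where 16.8% of all genes were lower and 18.3% higher. A called interaction, all negative, was found in 27 (6.46% of all genes were called negative). In RFP single positive against double negative the block gave 0 calls, with 23 of 84 at an unadjusted p under 0.05 (edgeR, 1989 of all 15375 genes). No label says that a number marks a shared animal or day. Deviations of same-numbered libraries had correlations of -0.0864 to 0.354 in the treatment experiment (median 0.0624, against -0.0451 for other pairs). In the reporter experiment these were -0.0109 to 0.286 (median 0.149, against -0.0622). Of the libraries, 9 of 12 and 8 of 9 were closest to their own number. The Xist share also followed the number in the reporter libraries (88.1% to 99.9% in those numbered 2, 0% to 10.2% in the others). Some pairing is therefore possible, and the main fits did not use it. The causes of these differences were not tested. Of the 10 genes with the smallest p, 2 kept their call when each library was left out for bortezomib in WT and 10 for genotype under bortezomib. Depth limits Rpl39l, Rpl6l, Rpl3l and Rpl10l only.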
